A study of Mus musculus with 12 samples.

Results

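The MHC class I and immunoproteasome genes described here are 10 genes whose products put peptides from inside a cell on its surface: B2m, H2-K1, H2-D1, H2-Q7, H2-T23, Tap1, Tap2, Tapbp, Psmb8 and Psmb9. They were chosen by symbol, as every row of the deposited expression tables whose gene entry holds a listed symbol. All 10 were found among 43613 genes or joined genes (items), and all 10 were among the 14608 items with at least 1 FPKM (a read density scaled for transcript length and library size) in at least 3 of the 12 libraries, which were tested. The libraries came from B cells sorted from pooled splenocytes of 6-month-old female mice on the C57BL/6J background. All mice carried the lupus susceptibility interval Sle1b. They were either B6.Sle1b or B6.Sle1b.IFNaR1-/-, which lack Ifnar1, a subunit of the receptor for type I interferon, by genotype (here "labelled Ifnar1KO"). Non-germinal centre (non-GC) cells were B220+GL7-CD95- and germinal centre (GC) cells B220+GL7+CD95+, which gave 4 groups of 3 libraries, 1 of each group in each of 3 batches. The design asks what type I interferon signalling changes in B cells of autoimmune-prone germinal centres.

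An MHC class I molecule is a heavy chain held by the light chain beta-2 microglobulin (B2m) and filled with a short peptide. Peptides are cut in the cytosol by the proteasome, whose catalytic subunits are exchanged for the inducible forms Psmb8 and Psmb9 (LMP7 and LMP2) in lymphoid cells and under interferon. The transporter Tap1-Tap2 carries them into the endoplasmic reticulum, where tapasin (Tapbp) holds the empty heavy chain at the transporter. H2-K1 and H2-D1 are the classical heavy chains that present to CD8 T cells, and H2-Q7 and H2-T23 encode the nonclassical chains Qa-2 and Qa-1. Type I interferon is known to raise transcription of this whole set, through interferon response elements and through the class I transactivator Nlrc5.

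Class I promoters are known for elements through which interferon, NF-kappa B and Nlrc5 act, and the stretches below show, as letters, the motifs found before H2-K1 and H2-Q7, which held all 4 marked here, and before B2m, which held 3. RefSeq (build GRCm38.p6) gave a promoter for 9 of the 10 genes. The 250 bases before each start were searched on both strands for the interferon response core GAANNGAAA or GAAANNGAA, the kappa B core GGGGATTCC, the X2 core TGACG and CCAAT. Matches are in capitals, and no matches of different motifs overlap here. The stretch of H2-K1 is chr17:34000354-34000463 on the minus strand, that of H2-Q7 is chr17:35439017-35439148 on the plus strand and that of B2m is chr2:122147543-122147643 on the plus strand. None of them overlaps an annotated exon of GENCODE.
H2-K1: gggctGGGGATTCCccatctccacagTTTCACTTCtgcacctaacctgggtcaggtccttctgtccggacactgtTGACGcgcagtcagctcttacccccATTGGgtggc
H2-Q7: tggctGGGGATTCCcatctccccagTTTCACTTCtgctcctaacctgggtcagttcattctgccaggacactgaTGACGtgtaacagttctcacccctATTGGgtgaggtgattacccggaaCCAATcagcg
B2m: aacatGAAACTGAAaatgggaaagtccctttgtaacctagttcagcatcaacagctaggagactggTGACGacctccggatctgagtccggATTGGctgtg
RefSeq gives 2 start sites for H2-K1, and the stretch shown belongs to that at 34000347. Counted from the start, the interferon core lay at -90 to -82 in H2-K1 (-104 to -96 from the other start, at 34000333), -113 to -105 in H2-Q7 and -139 to -131 in B2m. Up to the other start H2-K1 held a second CCAAT, and that longer stretch overlaps 1 exon. H2-D1 held the same 4 motifs as H2-K1, whereas neither the kappa B core nor the X2 core was found before H2-T23. From the kappa B core to the X2 core, H2-K1 was 94.7% identical to H2-D1 and 89.3% identical to H2-Q7. The kappa B core was found in H2-K1, H2-D1 and H2-Q7 and in 0.213% of all 32851 promoters. The interferon core was found in B2m, H2-K1, H2-D1, H2-Q7 and H2-T23 and in 12.5% of all promoters, whereas the X2 core stood in 17.8% and CCAAT in 33.8%. In the 250 bases before Tap1, Psmb9, Psmb8 and Tapbp the interferon core in these letters was not found. The gamma activated core TTCNNNGAA was searched as well. Of the 9 genes Psmb8 alone held it, and it stood in 7.02% of promoters. Tap1 and Psmb9 are read in opposite directions from start sites 226 bases apart. A match is a description of letters, not of a bound site.

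The tables place B2m on chromosome 2 and the other 9 genes within the MHC on chromosome 17 (GRCm38). Tap1 and Psmb9 share the window 34181988 to 34197225, and Psmb8 and Tap2 share the window 34197721 to 34216321. Strand is not stated to be kept by the library kit, so reads of such neighbours cannot be told apart where they overlap. The heavy chain genes share long stretches of sequence, and reads may have been divided among them. The row of Tapbp also holds Zbtb22 and cannot be divided.

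The knocked-out gene was read first. Ifnar1 stood at 14.6, 36.1 and 3.45 FPKM in Sle1b non-GC cells of batches 1, 2 and 3, and at 51.2, 69.1 and 2.58 FPKM in non-GC cells labelled Ifnar1KO. In GC cells it was 8.12, 9.89 and 6.80 FPKM in Sle1b and 14.1, 15.4 and 0 FPKM in those labelled Ifnar1KO. The transcript was thus higher in the libraries labelled Ifnar1KO in batches 1 and 2, which goes against the label, although the value covers the whole locus and the disrupted part is not stated. Every direction between genotypes below rests on that label. Reads on named genes, estimated from the step between low values, ranged from 935000 to 8232000 a library. Batch 3 stood apart: the cytoskeletal gene Actb was at 5.78 to 120 FPKM there and at 286 to 740 FPKM in the other 8 libraries. In batches 1 and 2 the summed level of 8 GC markers was 300 to 972 FPKM in the GC libraries, against 52.6 to 89.7 FPKM in the others. In all 4 libraries of batch 3 it was 18.7 to 20.8 FPKM, so the sum did not separate GC from non-GC cells there. Single markers went in different directions in batch 3. In Sle1b and under the label Ifnar1KO, Mki67 was at 5.54 and 5.86 FPKM in GC against 1.11 and 0.284 FPKM in non-GC libraries. Bcl6 was at 0.966 and 0.261 FPKM in GC against 8.20 and 4.21 FPKM in non-GC libraries. All 8 B cell markers were detected in all 12 libraries. Results are therefore given for all 3 batches and for batches 1 and 2 alone. Whether the 3 libraries of a group came from different animals is not stated in the labels, so p-values measure only how far these samples scatter, and that scatter may be technical.

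B2m was the most abundant of the 10 transcripts in all 8 libraries of batches 1 and 2, and in each batch and genotype the GC library held less of it than the non-GC library. It was at 1579, 1525 and 155 FPKM in Sle1b non-GC cells of batches 1, 2 and 3, against 466, 314 and 1.65 FPKM in Sle1b GC cells. With the label Ifnar1KO it was at 995, 676 and 17.7 FPKM in non-GC cells and 332, 247 and 4.56 FPKM in GC cells. In batches 1 and 2 the GC and non-GC libraries did not overlap. The share of all items that separate without overlap was not counted, here or for the other genes and groups below. Among all items the GC library was lower in both batches for 33.3% in Sle1b and 46.1% under the label Ifnar1KO. It was lower in all 3 batches for 14.2% and 19.2% of items. The order of the groups for B2m was the same in both batches: Sle1b non-GC, non-GC labelled Ifnar1KO, Sle1b GC, GC labelled Ifnar1KO. Over all 3 batches the groups overlapped, with means of 1087 ± 807, 563 ± 498, 260.5 ± 237 and 195 ± 170 FPKM in that order (SD, n = 3). Batch 3 held the lowest value of each group, and batches were normalized separately. These SDs therefore hold the difference between batches and do not measure how far neighbours in the order differ within a batch. The difference of GC from non-GC on the log2(FPKM + 1) scale was -3.31 in Sle1b (SE 0.74, adjusted p = 0.309, limma with Benjamini-Hochberg adjustment) and -2.02 without batch 3 (SE 0.38, adjusted p = 0.0928). Under the label Ifnar1KO it was -1.59 (SE 0.74, adjusted p = 0.408, limma) and -1.51 without batch 3 (SE 0.38, adjusted p = 0.118). Neither genotype passed the threshold of 0.05, with or without batch 3. The B2m value of 1.65 FPKM in Sle1b GC cells of batch 3 rests on an estimated 3.9 reads. In bulk samples fewer cells of a type and less RNA per cell cannot be told apart.

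Between genotypes, B2m in non-GC cells stood lower in the library labelled Ifnar1KO in each of the 3 batches, as for 6.43% of all items. The differences were -0.67, -1.17 and -3.06 in batches 1, 2 and 3. The fitted difference was -1.63 (SE 0.74, adjusted p = 1.00, limma) and without batch 3 it was -0.92 (SE 0.38, adjusted p = 1.00), and neither passed. In GC cells the differences were -0.49, -0.34 and 1.07, and the fitted value of 0.08 (SE 0.74) turned to -0.42 (SE 0.38) without batch 3. The interaction of genotype and cell type for B2m was 1.71 (SE 1.05, adjusted p = 0.992, limma). These comparisons share libraries with those of GC against non-GC cells, the Sle1b non-GC libraries among them.

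**Figure D1:**
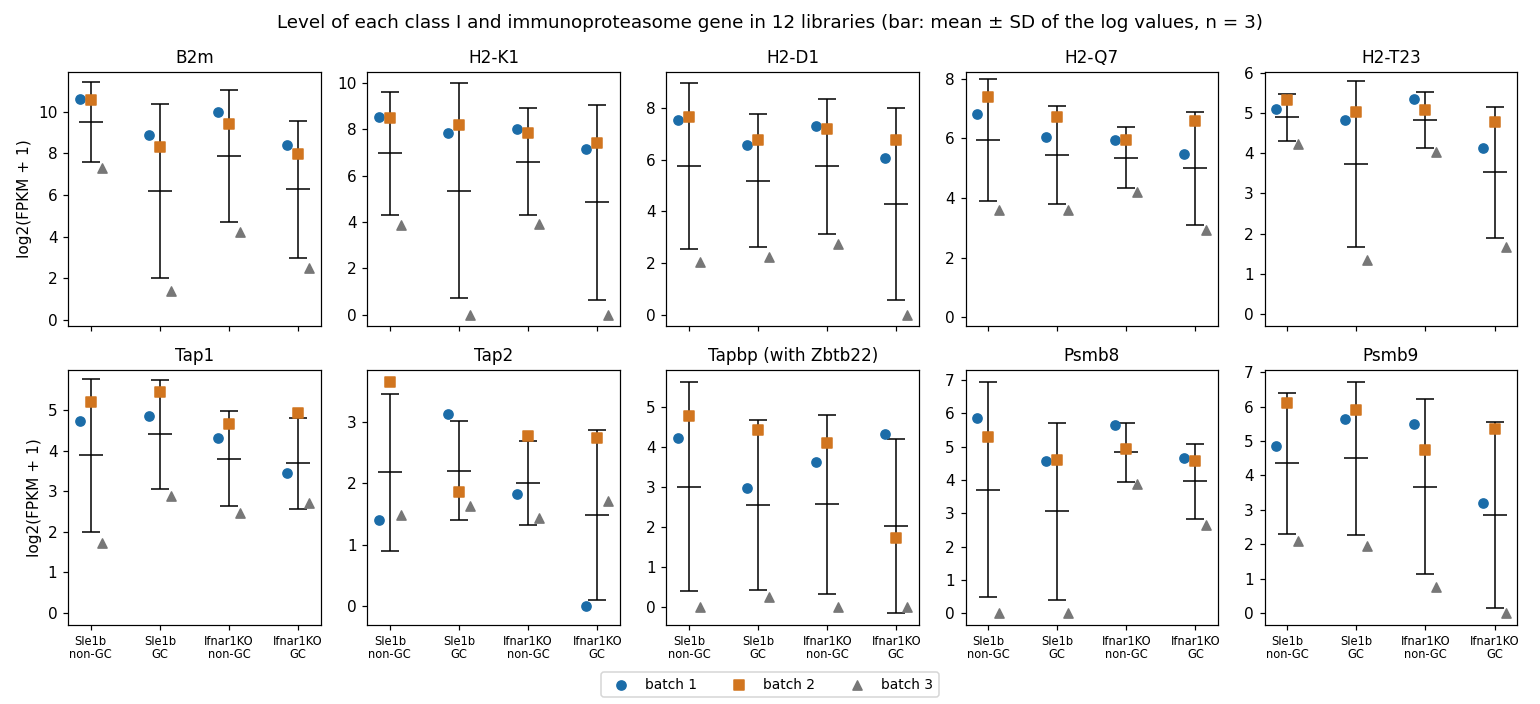
Level of each of the 10 genes as log2(FPKM + 1) in the 4 groups. Points are libraries marked by batch and bars are the mean ± SD of the log values (n = 3). For B2m each GC library lies below the non-GC library of its batch and genotype, and the batch 3 libraries lie lowest in all 4 groups of B2m, H2-K1, H2-D1 and H2-Q7.

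The classical heavy chains H2-K1 and H2-D1 had the same direction as B2m in batches 1 and 2 at smaller differences. H2-K1 stood at 365 and 354 FPKM in Sle1b non-GC cells of batches 1 and 2, at 227 and 292 in Sle1b GC cells, at 258 and 230 in non-GC cells labelled Ifnar1KO and at 139 and 168 in GC cells labelled Ifnar1KO. In batch 3 it was at 13.6 and 14.2 FPKM in the non-GC libraries of both genotypes and was listed at 0 in both GC libraries. Within each genotype the non-GC and GC libraries of batches 1 and 2 did not overlap. The share of all items that separate so was not counted. For 33.3% of items in Sle1b and 46.1% under the label Ifnar1KO the GC library was lower in both batches. The fitted difference of GC from non-GC in H2-K1 was -1.61 in Sle1b (SE 0.80, adjusted p = 0.554, limma) and -0.48 without batch 3 (SE 0.36), and -1.76 in those labelled Ifnar1KO (SE 0.80, adjusted p = 0.401) and -0.67 without batch 3 (SE 0.36). Leaving out batch 3 thus shrank both differences by more than 1.5 times, and neither passed.

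H2-D1 stood at 186 and 201 FPKM in Sle1b non-GC cells of batches 1 and 2, at 94.7 and 108 in Sle1b GC cells, at 158 and 145 in non-GC cells labelled Ifnar1KO and at 65.8 and 108 in GC cells labelled Ifnar1KO. In batch 3 all 4 libraries were at 0 to 5.61 FPKM. In batches 1 and 2 the 4 non-GC libraries lay above the 4 GC libraries, with no overlap between cell types. The share of all items that do so was not counted, so the separation cannot be read as particular to H2-D1. The GC library was lower in both batches for 33.3% of items in Sle1b and 46.1% under the label Ifnar1KO. The difference of GC from non-GC in H2-D1 was -0.56 in Sle1b (SE 0.57, adjusted p = 0.783, limma) and -0.93 without batch 3 (SE 0.38, adjusted p = 0.331). For H2-D1 in libraries labelled Ifnar1KO it was -1.47 (SE 0.57, adjusted p = 0.351) and -0.84 without batch 3 (SE 0.38, adjusted p = 0.270). H2-K1 was above H2-D1 by FPKM, which is per length, in all 8 libraries of batches 1 and 2, by a ratio of 1.56 to 2.70.

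Between genotypes both classical chains stood lower in the libraries labelled Ifnar1KO in batches 1 and 2 of non-GC cells. For H2-K1 the differences were -0.50 and -0.62 in non-GC cells and -0.70 and -0.79 in GC cells. For H2-D1 they were -0.23 and -0.46 in non-GC cells and -0.52 and 0.00 in GC cells. In batch 3 the non-GC difference had the other sign in both genes, at 0.06 for H2-K1 and 0.67 for H2-D1. The fitted differences in non-GC cells were -0.35 for H2-K1 (SE 0.80) and -0.01 for H2-D1 (SE 0.57), both at an adjusted p of 1.00 in limma.

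H2-Q7 encodes Qa-2, a nonclassical chain that is abundant on lymphocytes of this strain, and it had the largest fitted genotype difference of the 10 genes in non-GC cells of batches 1 and 2. It stood at 111 and 167 FPKM in Sle1b non-GC cells of batches 1 and 2 and at 60.4 and 60.4 FPKM in those labelled Ifnar1KO. In GC cells it was at 65.1 and 104 FPKM in Sle1b and at 43.9 and 94.5 FPKM in those labelled Ifnar1KO. The non-GC groups of batches 1 and 2 did not overlap, and the GC groups did. Among all items the non-GC library labelled Ifnar1KO was lower in both of these batches for 16.8%. In batch 3 the library labelled Ifnar1KO was the higher one among non-GC cells, at 17.3 against 11.1 FPKM, and among GC cells the values were 6.54 and 11.1 FPKM. The difference in non-GC cells was -1.16 without batch 3 (SE 0.40, adjusted p = 1.00, limma) and -0.58 with it (SE 0.54, adjusted p = 1.00). The authors' deposited table of batch 2 gave q = 0.00839 for H2-Q7 and q = 0.0266 for B2m between the same non-GC libraries, a comparison of 1 library with 1 library. GC against non-GC in H2-Q7 was -0.48 in Sle1b (SE 0.54) and -0.36 in the libraries labelled Ifnar1KO (SE 0.54), and the latter turned to 0.09 without batch 3 and to 0.10 when each library was centred on its median.

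H2-T23 encodes Qa-1, the chain that presents leader peptides of other class I molecules to CD94-NKG2 receptors. Its level was 33.2 and 39.2 FPKM in Sle1b non-GC cells of batches 1 and 2, 27.4 and 31.2 in Sle1b GC cells, 39.7 and 32.5 in non-GC cells labelled Ifnar1KO and 16.4 and 26.3 in GC cells labelled Ifnar1KO. In batch 3 the non-GC libraries were at 17.8 and 15.4 FPKM and the GC libraries at 1.53 and 2.2 FPKM. Each GC library was lower than the non-GC library of its genotype and batch, in 3 of 3 batches in both genotypes. Among all items this held for 14.2% in Sle1b and 19.2% under the label Ifnar1KO. The batch 3 GC values of H2-T23 rest on an estimated 13.4 and 35.6 reads. The fitted differences were -1.16 in Sle1b (SE 0.62, adjusted p = 0.583, limma) and -1.29 in those labelled Ifnar1KO (SE 0.62, adjusted p = 0.420), and they shrank to -0.29 and -0.76 without batch 3.

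The balance between light and heavy chains differed by cell type in batches 1 and 2. B2m divided by the sum of H2-K1, H2-D1, H2-Q7 and H2-T23, in FPKM within a library, was 2.27 and 2.0 in Sle1b non-GC cells and 1.93 and 1.45 in non-GC cells labelled Ifnar1KO. In GC cells it was 1.13 and 0.587 in Sle1b and 1.25 and 0.623 in those labelled Ifnar1KO. Each GC library of batches 1 and 2 lay below each non-GC library, and a ratio within a library is free of its scaling. By these values the light chain and the summed heavy chains were not lower to the same extent in batches 1 and 2. The ratio restates the levels above, and the share of other gene ratios that separate so was not counted. In batch 3 the ratio went from 3.40 to 0.101 in Sle1b and the other way, from 0.338 to 0.522, in the libraries labelled Ifnar1KO. The ratio was formed with these levels in view and was not tested.

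**Figure D2:**
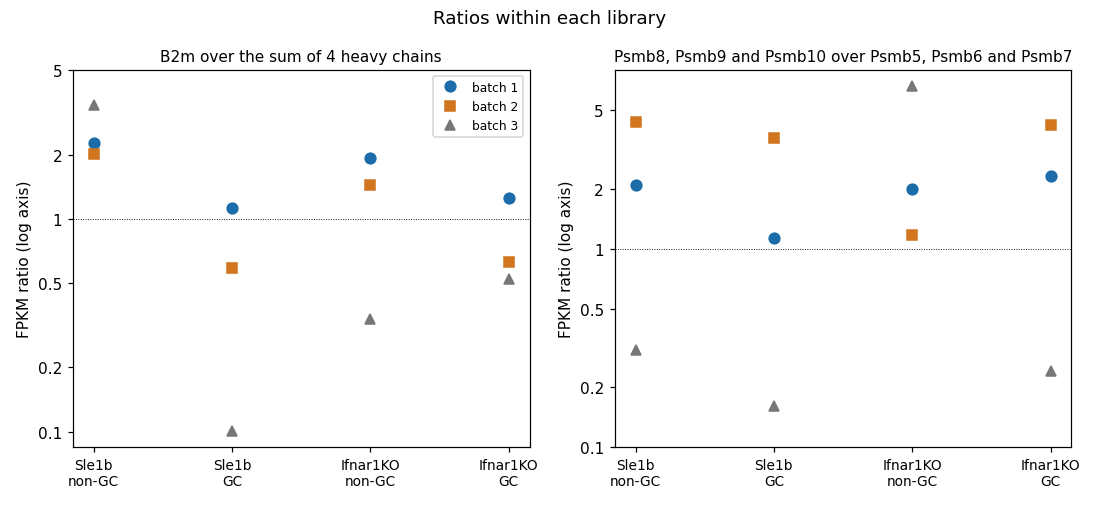
Ratios of FPKM within each library on a log axis, B2m over 4 heavy chains at the left and inducible over constitutive proteasome subunits at the right. Points are single libraries marked by batch. At the left the GC libraries of batches 1 and 2 lie at 0.587 to 1.25 and the non-GC libraries at 1.45 to 2.27, and at the right no group lies apart.

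Tap1, the first subunit of the peptide transporter, did not share the direction of B2m in Sle1b mice. It stood at 25.4, 35.9 and 2.30 FPKM in Sle1b non-GC cells and 28.0, 42.5 and 6.4 FPKM in Sle1b GC cells of batches 1, 2 and 3. The GC library was the higher one in all 3 batches, as for 8.02% of all items, yet the groups overlapped. Tap1 in libraries labelled Ifnar1KO was at 18.7, 24 and 4.48 FPKM in non-GC cells and 9.84, 29.2 and 5.55 FPKM in GC cells. Here batch 1 had the GC library lower and batches 2 and 3 had it higher. The fitted differences of GC from non-GC were 0.51 in Sle1b (SE 0.54, adjusted p = 0.790, limma) and -0.11 in those labelled Ifnar1KO (SE 0.54, adjusted p = 0.946), and the latter was 0.35 after centring on the median. Between genotypes in GC cells Tap1 was lower in the library labelled Ifnar1KO in 3 of 3 batches, as for 12.7% of all items. The differences were -1.42, -0.53 and -0.18, and the fitted difference was -0.71 (SE 0.54, adjusted p = 0.818, limma).

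Tap2, the other subunit of the transporter, was the least abundant of the 10 genes by mean FPKM. It was at 1.65, 11.5 and 1.79 FPKM in Sle1b non-GC cells and at 7.70, 2.61 and 2.09 FPKM in Sle1b GC cells. Libraries labelled Ifnar1KO held 2.52, 5.79 and 1.72 FPKM of it in non-GC cells, and in GC cells it was listed at 0 in batch 1 and stood at 5.66 and 2.27 FPKM in batches 2 and 3. The GC library was the higher one in Sle1b in batch 1 (1.72) and the lower one in batch 2 (-1.79), so the batches gave opposite differences. The fitted difference was 0.02 (SE 0.73, limma) and turned to -0.04 without batch 3. Tapbp, counted together with Zbtb22, was at 6.87 to 26.5 FPKM in 7 libraries of batches 1 and 2, at 2.30 FPKM in the GC library labelled Ifnar1KO of batch 2, and at 0 to 0.188 FPKM in batch 3. Its differences of GC from non-GC in the libraries labelled Ifnar1KO were 0.71 in batch 1 and -2.36 in batch 2. Neither gene separated the groups.

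The immunoproteasome subunits differed from each other. Psmb8 stood at 57.1 and 37.9 FPKM in Sle1b non-GC cells of batches 1 and 2 and 22.9 and 23.5 FPKM in Sle1b GC cells, and at 49.6 and 29.7 FPKM in non-GC cells labelled Ifnar1KO and 24.2 and 22.8 FPKM in GC cells labelled Ifnar1KO. All 4 GC libraries of batches 1 and 2 lay below the 4 non-GC libraries, and the share of all items that do so was not counted. A lower GC library in both batches was found for 33.3% of items in Sle1b and 46.1% under the label Ifnar1KO. In batch 3 Psmb8 was listed at 0 in both Sle1b libraries and stood at 13.9 and 5.30 FPKM in those labelled Ifnar1KO. The fitted difference of GC from non-GC in Sle1b was -0.65 (SE 0.81, adjusted p = 0.828, limma) and -0.98 without batch 3 (SE 0.42). In the libraries labelled Ifnar1KO it was -0.87 (SE 0.81, adjusted p = 0.659) and -0.69 without batch 3 (SE 0.42). Between genotypes in non-GC cells the fitted value of 1.12 (SE 0.81) turned to -0.27 without batch 3.

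Psmb9 was at 28.1, 67.1 and 3.28 FPKM in Sle1b non-GC cells and at 48.8, 59.0 and 2.84 FPKM in Sle1b GC cells of batches 1, 2 and 3. In the libraries labelled Ifnar1KO it was at 44.2, 25.8 and 0.714 FPKM in non-GC cells and at 8.15, 40.1 and 0 FPKM in GC cells. The GC and non-GC libraries overlapped in both genotypes. In GC cells the library labelled Ifnar1KO was lower than the Sle1b library in all 3 batches, with differences of -2.45 and -0.55 in batches 1 and 2, where the groups did not overlap, and a listed 0 in batch 3. Among all items it was lower in both of batches 1 and 2 for 31.6% and in all 3 batches for 12.7%. The fitted difference of -1.64 (SE 0.60, adjusted p = 0.741, limma) and that without batch 3, -1.50 (SE 0.65), were the most negative of the 10 genes in this comparison, and neither passed. Within a library, the sum of Psmb8, Psmb9 and the third inducible subunit Psmb10 over the sum of the constitutive subunits Psmb5, Psmb6 and Psmb7 was 1.14 to 4.36 in batches 1 and 2. It was 2.1 and 4.36 in Sle1b non-GC cells, 1.14 and 3.64 in Sle1b GC cells, 2.0 and 1.17 in non-GC cells labelled Ifnar1KO and 2.33 and 4.24 in GC cells labelled Ifnar1KO, so the groups overlapped. The summed FPKM of the inducible forms was thus above that of the constitutive forms in all 8 libraries. It did not hold form by form. In Sle1b GC cells of batch 1 Psmb8 was at 22.9 and Psmb5 at 45.1 FPKM, and Psmb10 at 0.787 and Psmb7 at 4.37 FPKM. In batch 3 the ratio ran from 0.162 to 6.67.

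Counted together, the 10 genes leaned towards lower levels in GC cells, as did all items. In Sle1b, 0 of the 10 passed the test in either direction, against 0% of all 14608 items higher and 0% lower. At an unadjusted p under 0.05 the count was 1 of 10, B2m, against 9.49% of items. Without batch 3, 0 of 10 passed, against 0.0489% higher and 0.00816% lower of 12260 items, and 3 of 10 had an unadjusted p under 0.05 (B2m, H2-D1 and Psmb8) against 13.6%. The GC library was lower in both of batches 1 and 2 for 7 of the 10 genes, against 33.3% of items, and higher in both for Tap1 alone, against 24.7%. It was lower in all 3 batches for 4 of 10, against 14.2%. The median difference of the 10 genes was -0.52 over all 3 batches and -0.60 without batch 3, beside -0.11 and -0.15 over all items.

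In the libraries labelled Ifnar1KO, 0 of the 10 genes passed between GC and non-GC cells, against 0% of items higher and 0.00685% lower. The count at an unadjusted p under 0.05 was 2 of 10, H2-D1 and H2-K1, against 12.3%. Without batch 3, 0 of 10 passed, against 0.122% higher and 0.188% lower, and B2m alone had an unadjusted p under 0.05, against 19.3% of items. The GC library was lower in both of batches 1 and 2 for 6 of 10, against 46.1% of items, and in all 3 batches for 5 of 10, against 19.2%. The median difference was -0.85 beside -0.39 over all items, and -0.79 beside -0.51 without batch 3. Over all items the medians thus lay more than 0.1 below 0 in both genotypes, and a difference of a single gene is to be read against them. B cell markers had the same sign: in GC cells of batches 1 and 2 the median difference of the 8 genes was -0.58 in Sle1b and -0.50 in the libraries labelled Ifnar1KO (-1.27 and -1.24 with batch 3), and their summed level ran from 3072 to 5109 FPKM over non-GC libraries and from 2261 to 2687 FPKM over GC libraries. Their part in the result was not tested. The library of Sle1b GC cells of batch 1 also held more myeloid (172 FPKM summed over 9 markers) and erythroid or platelet transcripts (97.9 FPKM over 8 markers) than the other 7 libraries of batches 1 and 2 (18.8 to 47.5 and 0 to 26.4 FPKM), and their part was not tested either. Summed over 6 NK cell markers the level ran from 5.87 to 21.9 FPKM over non-GC cells and from 0 to 13.4 FPKM over GC cells of these batches, with Prf1 listed at 0 in 7 of the 8 libraries. T cell markers summed to 16.8 to 43.2 and 10.2 to 28.2 FPKM, and plasma cell markers to 48.2 to 89.2 and 31.5 to 67.8 FPKM. Plasmacytoid dendritic cell markers summed to 128 to 194 and 68.5 to 202 FPKM. Spib and Tcf4 made up most of that sum in each library. In Sle1b non-GC cells of batch 1 they gave 89.7 and 28.5 of 128 FPKM. For Siglech the lowest non-GC value was 2.515 FPKM and the highest GC value 0.208 FPKM, and for Bst2 they were 1.665 and 0.967 FPKM. Ccr9 overlapped, and Cox6a2 was listed at 0 in every GC library. Stromal and endothelial markers summed to 49.9 to 92.8 and 12.8 to 35.6 FPKM, mostly from Pecam1, with Col1a1 listed at 0 in 7 of the 8. The part of these lists in the results was not tested.

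**Figure D3:**
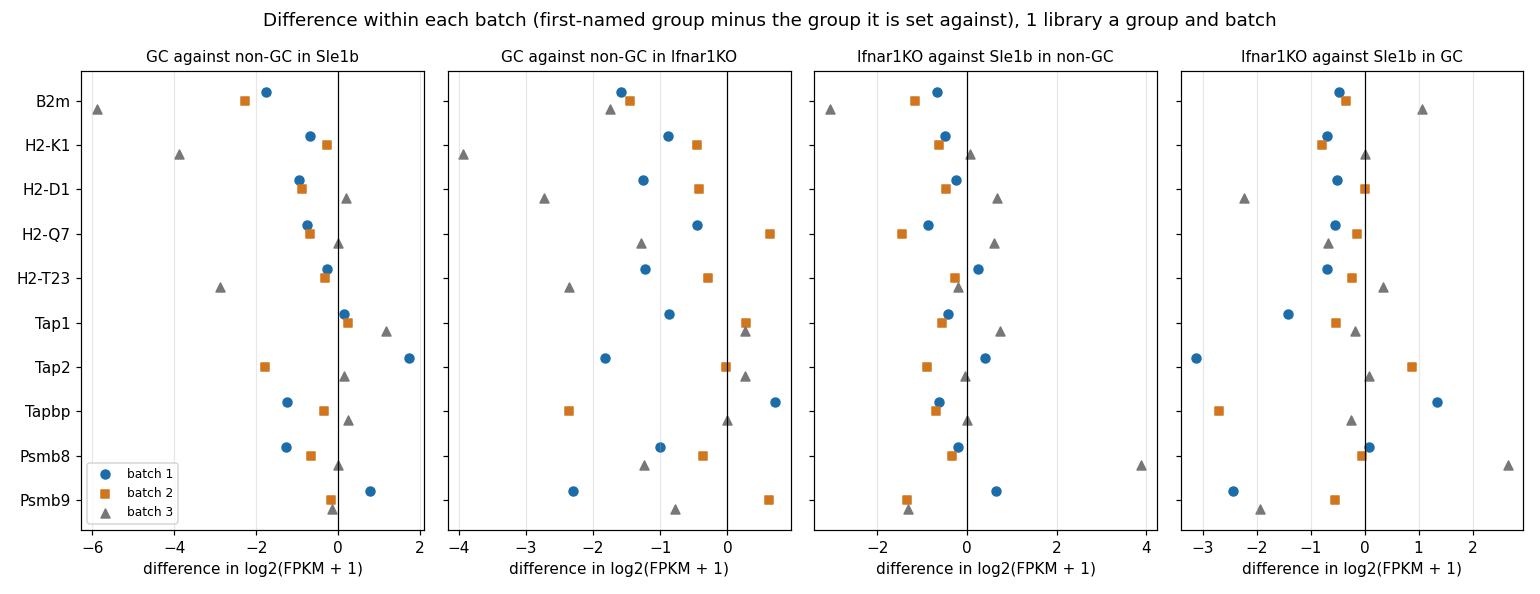
Difference in log2(FPKM + 1) within each batch for the 10 genes in 4 comparisons, 1 library a group and batch. Points left of 0 are lower in the first-named group. B2m lies left of 0 in all 3 batches in the first 3 panels, and H2-Q7, Tap1 and Psmb9 do so in the last panel.

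Between genotypes in non-GC cells the medians of the 10 genes and of all items had opposite signs in batches 1 and 2. In the fit, 0 of 10 passed, against 0% of items in both directions, and B2m had an unadjusted p under 0.05, against 1.66% of items. Without batch 3, 0 of 10 passed, against 0% in both directions, and B2m and H2-Q7 had an unadjusted p under 0.05, against 1.51%. The library labelled Ifnar1KO was lower in both of batches 1 and 2 for 7 of the 10 genes, against 16.8% of items: B2m, H2-K1, H2-D1, H2-Q7, Tap1, Tapbp and Psmb8. H2-T23, Tap2 and Psmb9 were higher in batch 1 and lower in batch 2. The fitted difference over both batches was below 0 for 10 of 10, against 37.4% of items. Among the 10, H2-T23 was at -0.004 (SE 0.43) and Tap2 at -0.24 (SE 0.97). In all 3 batches B2m alone was lower, against 6.43% of items. The median difference without batch 3 was -0.42 for the 10 genes and 0.15 over all items, and with batch 3 it was -0.26 and 0.01. In batch 3 H2-K1, H2-D1, H2-Q7, Tap1 and Psmb8 stood higher in the library labelled Ifnar1KO, so the direction does not extend to that batch. Since Ifnar1 itself was higher in these libraries, the direction between genotypes depends on the label.

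In GC cells, 0 of the 10 genes passed between genotypes, against 0% of items in both directions, and Psmb9 had an unadjusted p under 0.05, against 6.56%. Without batch 3, 0 of 10 passed, against 0.00816% of items higher and 0% lower, and Psmb9 had an unadjusted p under 0.05, against 9.47%. The library labelled Ifnar1KO was lower in both of batches 1 and 2 for 6 of 10, against 31.6% of items, and in all 3 batches for 3 of 10, H2-Q7, Tap1 and Psmb9, against 12.7%. It was higher in all 3 batches for 0 of 10, against 3.05%. The median difference was -0.52 beside -0.25 over all items. For the interaction, which asks whether the genotype difference itself differed between cell types, 0 of 10 passed, against 0% in both directions. At an unadjusted p under 0.05 the count was 0 of 10 with all batches, against 3.74%, and 0 of 10 without batch 3, against 5.36%. The test of limma therefore gave no gene of the 10 for which the genotype difference of non-GC cells could be told from that of GC cells.

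The other genes of the pathway were read from 10 lists, and none of their tested members passed in any of the 5 comparisons, with or without batch 3. Among the factors of class I transcription, the transactivator Nlrc5 stood at 32.0 and 66.2 FPKM in Sle1b non-GC cells of batches 1 and 2 and at 17.3 and 24.6 FPKM in those labelled Ifnar1KO, where it had a difference of -1.12 (SE 0.51, adjusted p = 1.00, limma) without batch 3 and -0.37 (SE 0.67) with it. In GC cells Nlrc5 was at 36.2 and 66.8 FPKM in Sle1b and 10.6 and 54.1 FPKM in those labelled Ifnar1KO. The 15 measured factors of this list had a median difference between genotypes of -0.04 in non-GC cells and -0.82 in GC cells without batch 3, beside 0.15 and -0.24 over all items.

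Of 17 other class I heavy chains listed, 15 were measured and 9 tested without batch 3. The difference of GC from non-GC was below 0 for 7 of the 9 in Sle1b, against 56.5% of items, and for 7 in those labelled Ifnar1KO, against 70.2%. Between genotypes it was below 0 for 7 in non-GC cells, against 37.4% of items, and for 7 in GC cells, against 61.8%. These were not the same 7 throughout, since 4 of the 9 were below 0 in all 4 comparisons, against 13.2% of items. Their median difference between genotypes in non-GC cells was -0.79, beside 0.15 over all items. The most abundant were H2-Q6, H2-Q5 and H2-M3, whose genotype differences in non-GC cells were -0.67 (SE 0.41), -1.60 (SE 0.66) and -0.79 (SE 0.52). Reads shared with H2-Q7 and the other heavy chains can carry over between these rows, so they are not independent of it.

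The lists of peptide supply and loading had median genotype differences of -0.12 or above in non-GC cells of batches 1 and 2. Psme1, a chain of the PA28 activator that is induced with the immunoproteasome, stood at 208 and 366 FPKM in Sle1b non-GC cells of batches 1 and 2 and 119 and 215 FPKM in Sle1b GC cells. In the libraries labelled Ifnar1KO it stood at 249 and 326 FPKM in non-GC cells and 99.98 and 111 FPKM in GC cells. Its difference of GC from non-GC was -0.78 (SE 0.37, adjusted p = 0.404, limma) in Sle1b and -1.43 (SE 0.37, adjusted p = 0.125) in those labelled Ifnar1KO without batch 3. Between genotypes in non-GC cells Psme1 had a difference of 0.05 (SE 0.37), and its partner Psme2 one of 0.04 (SE 0.45). The 7 genes of peptide loading and folding in the endoplasmic reticulum, led by the chaperones Hspa5, Calr and Canx, had a median genotype difference of 0.28 in non-GC cells without batch 3. The 17 genes of the 19S regulatory particle had one of 0.02, the 11 other subunits of the 20S core one of -0.12, the 3 constitutive catalytic subunits one of 0.78 and the 8 genes of peptide trimming and supply one of 0.03. The 3 class I-like genes tested had one of 0.44 and the 4 tested receptors of T and NK cells for class I one of 0.25. Of the 10 lists, that of the other heavy chains was the 1 with a median under that of the 10 genes described, -0.42, in this comparison.

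**Figure D4:**
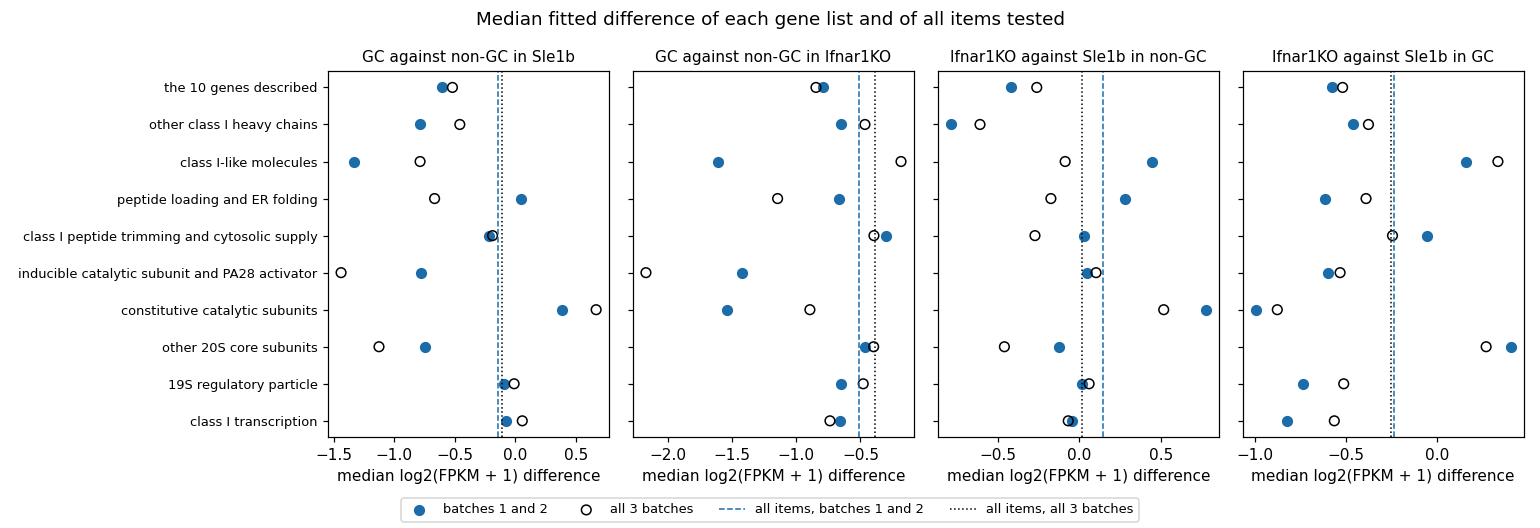
Median fitted difference in log2(FPKM + 1) of the 10 genes and of 9 other lists of the pathway (the receptors are not drawn), with and without batch 3, in 4 comparisons. Lines mark the median of all items tested. In the third panel the 10 genes and the other class I heavy chains lie farthest left of both lines without batch 3, at -0.42 and -0.79.

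The 10 genes did not all vary together. Over the 8 libraries of batches 1 and 2, after centring within batch, B2m correlated with H2-D1 at r = 0.943 and with Psmb8 at r = 0.897, and H2-D1 with Psmb8 at r = 0.945. Tap1 correlated with Psmb9, its divergent neighbour, at r = 0.882 and with B2m at r = 0.304. With batch 3, over 12 libraries, these were 0.472 for B2m with H2-D1, 0.0505 for B2m with Psmb8, 0.0892 for H2-D1 with Psmb8, 0.419 for Tap1 with Psmb9 and -0.359 for Tap1 with B2m, so none of the 5 was as high. Over the 8 libraries Tapbp was at r = -0.277 to 0.524 with the other 9. These values describe libraries that share groups, batches and scaling, and carry no test. The genes most like the mean of the 10 in these 8 libraries were Praf2 (r = 0.987, at a low mean of 2.14 FPKM), Phf7 (0.979, at a low mean of 0.872 FPKM), Dctn4 (0.976), Trim30d (0.974) and Gvin1 (0.968). Over all 12 libraries they were Sp100 (r = 0.968), Ppig (0.952), Mpp5 (0.950), Mcl1 (0.939) and Zrsr1 (0.931), so no gene was among the 5 nearest both with and without batch 3.

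The authors' deposited tables, which set 1 library against 1 other within a batch, held 170 rows of the 10 genes, of which 157 were tested by the authors. Of these, 7 had a q-value under 0.05, beside 7.81% of all loci tested. In batches 1 and 2 there were 2, the batch 2 differences of H2-Q7 and B2m between non-GC libraries, with 176 against 61.7 FPKM and 1609 against 691 FPKM in that table. The other 5 were in batch 3, 4 of H2-K1 and 1 of H2-D1, and each set a library listed at 0 against one of 3.15 to 15.9 FPKM. The same genotype comparison of batch 1 did not have a q-value under 0.05 for either gene. The authors' comparisons of batch 1 did not include Sle1b GC against Sle1b non-GC cells. The difference given above for it rests on joining the other comparisons of that batch.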

How the data were processed

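RNA was measured in 12 libraries. The submitters' processing notes name TopHat2 2.0.9 and Bowtie2 2.1.0, CASAVA, Cuffdiff and Cufflinks 2.2.1, and the build GRCm38 (mm10). Per the labels' protocols the libraries were made with the SMARTer Ultra Low v3 and Nextera XT kits. Each of the 17 deposited tables compares 2 libraries of a batch and gives, per the file headers, the FPKM the authors computed and the authors' p-value and q-value for 506504 loci, of which 45241 are named. All columns used were matched to a sample. Values of loci that carry 1 symbol were added, and symbols at 1 locus stayed together. Tables were normalized separately, and the values of a library in different tables differed by 1 factor, so the tables of a batch were joined by least squares on within-table ratios. Levels of different batches come from separately normalized tables, and tests use differences within batches. The test was limma 3.58.1 (R 4.3.3) on log2(FPKM + 1) with a trend and batch as a block (6 residual degrees of freedom), two-sided, Benjamini-Hochberg over all tested items, threshold 0.05, checked on simulated data. The simulated data had less spread than these libraries and no difference between batches, so that check does not give the power of the test here. The pseudocount of 1 understates changes of low genes, a value of 0 can be a failed estimate, and a difference that includes one depends on the pseudocount. The block rests on the batches within which the tables pair libraries, and batch and replicate number were the same in all 12 libraries. The depth estimate took values of low loci as whole reads within 0.1 read. The members and lists were chosen with earlier results of these data known. All 10 members are named, and from the other lists those of highest mean FPKM, with Nlrc5 named after its values were seen. A gene of the lists is not reported here. Alternatives tried were a pseudocount of 0.1, no filter, batches 1 and 2 alone, no block, each library left out, means over tables, median scaling, no trend and, chosen after seeing the data, item-wise least squares.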

Additional observations from a re-analysis of the deposited data

How the results depend on the processing

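None of the 10 genes passed the threshold under any of the 20 alternative settings, and the lowest adjusted p of any of them was 0.0928, for B2m between GC and non-GC cells in Sle1b (limma, batches 1 and 2 alone). Of 1000 differences recomputed, 921 kept their direction and 79 changed it, 59 of them with 1 library left out. B2m, H2-K1, H2-D1 and H2-T23 stayed lower in GC than in non-GC libraries of both genotypes under all 20. The number of items past the threshold between GC and non-GC cells was 7 in Sle1b with batches 1 and 2 alone, and in libraries labelled Ifnar1KO it was 38 with batches 1 and 2 alone, 0 with no replicate block, 3 with means over tables and 3 with item-wise least squares. Between genotypes in GC cells it was 1 with batches 1 and 2 alone. With 1 library left out these counts ran from 0 to 1 in Sle1b, 0 to 2 in those labelled Ifnar1KO, 0 to 1 between genotypes in GC cells and 0 to 1 for the interaction. The replicate numbers follow accession order, so the block is the batch of the tables.

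Directions that changed, on the log2 scale: with batches 1 and 2 alone, GC against non-GC became -0.039 for Tap2 in Sle1b and 0.093 for H2-Q7 in libraries labelled Ifnar1KO, the genotype difference became -0.271 for Psmb8 in non-GC and -0.415 for B2m in GC cells, and the interaction became 0.089 for H2-D1 and 0.288 for Psmb8. With median scaling, GC against non-GC in libraries labelled Ifnar1KO became 0.099 for H2-Q7 and 0.352 for Tap1, the genotype difference became 0.044 for H2-D1 in non-GC and 0.185 for H2-T23 in GC cells, and the interaction became 0.188 for H2-K1, 0.202 for H2-T23, 0.234 for Tapbp and 0.111 for Psmb8. With means over tables, GC against non-GC in Sle1b became -0.123 for Tap2 and -0.038 for Psmb9 and the interaction 0.004 for Tapbp. With item-wise least squares, Tap2 in Sle1b became -0.074 and H2-D1 between genotypes in non-GC cells 0.000, and with a pseudocount of 0.1 the latter was 0.037. The cause was not tested.

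Leaving out 1 library at a time turned 1 to 7 of the 50 member differences, depending on the library, and every one of the 12 turned at least 1. Of the GC against non-GC differences in Sle1b, Tap2 turned without the non-GC libraries of batches 1 or 3 or the GC library of batch 1, Tapbp without the GC library of batch 1, and Psmb9 without the non-GC library of batch 1. In libraries labelled Ifnar1KO, H2-Q7 and Psmb8 turned without the non-GC library of batch 3, Tap1 and Tap2 without the GC library of batch 1, and Tapbp without the GC library of batch 2. For GC against non-GC in Sle1b the ranges were -0.84 to 0.78 for Tap2, -0.89 to 0.10 for Tapbp, -0.15 to 0.40 for Psmb9. For the same in libraries labelled Ifnar1KO the ranges were -0.79 to 0.10 for H2-Q7, -0.46 to 0.31 for Tap1, -0.94 to 0.21 for Tap2, -1.25 to 0.46 for Tapbp, -1.50 to 0.007 for Psmb8. For the genotypes in non-GC cells the ranges were -1.23 to 0.25 for H2-K1, -0.32 to 0.26 for H2-D1, -0.49 to 0.44 for H2-T23, -0.53 to 0.22 for Tap1, -0.43 to 0.29 for Tap2. For the genotypes in GC cells the ranges were -0.71 to 0.53 for B2m, -1.40 to 0.075 for H2-K1, -0.85 to 0.13 for H2-T23, -1.47 to 0.15 for Tap2, -1.24 to 0.47 for Tapbp. For the interaction the ranges were -1.05 to 0.73 for H2-K1, -0.31 to 0.58 for H2-Q7, -0.78 to 0.29 for H2-T23, -1.30 to 0.32 for Tap2, -0.80 to 0.91 for Tapbp, -0.85 to 0.75 for Psmb8. Batch 3 values rest on few reads, with gene medians from 0 (Tapbp) to 202 (H2-Q7) estimated reads a library, which limits the precision of every difference that uses it.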
